A study of Homo sapiens with 9 samples.

Results

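MHC class II genes and their master regulator CIITA were examined in Z138, an established human cell line derived from a mantle cell lymphoma, which is a cancer of B cells. The 10 genes were taken by symbol from the 16586 genes of the deposited table: CIITA, CD74, HLA-DRA, HLA-DRB1, HLA-DPA1, HLA-DPB1, HLA-DQA1, HLA-DQB1, HLA-DMA and HLA-DMB. All 10 had a row, and 8 of them passed the filter on low values, which HLA-DRA and HLA-DMA did not pass. The 3 groups, each of 3 RNA-seq libraries and 9 libraries in all, were a SOX11 rescue (Z138SOX11Resc, genotype SOX11KO+SOX11Rescue), a SOX11 knockout (Z138SOX11KO, genotype SOX11KO) and wild-type Z138 cells (WT). The rescue thus carries the knockout too. No further allele or agent is named in the labels, and all groups grew in RPMI-1640 medium with fetal bovine serum. The sources used here do not give how SOX11 was removed or returned, whether each engineered line is 1 clone, or whether libraries came from separate cultures. All p-values therefore rest on the spread among libraries, which may be technical. Each library carries a batch number equal to its replicate number, so every batch holds 1 library of each group.

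MHC class II molecules are pairs of an alpha and a beta chain that carry peptides from the endosome to the cell surface, where CD4 T cells read them. HLA-DR, HLA-DP and HLA-DQ present the peptides, the invariant chain CD74 guides new pairs through the cell and covers their groove, and HLA-DM exchanges a fragment of CD74 for a peptide. In B cells the genes are transcribed when CIITA, which does not bind DNA itself, joins a complex of RFX, CREB and NF-Y proteins on a conserved pair of promoter elements, the X box and the Y box. Loss of class II is a known route by which B cell lymphomas escape T cells.

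These elements were looked for in RefSeq promoters (GRCh38.p14, from 250 bases before to 50 after each start), of which 8 of the 10 genes had one. CIITA and HLA-DRA had no entry in the table used. The letters searched, chosen after the sequences had been seen, were GATG of the X box followed after 10 to 30 bases by ATTGG or CCAAT, the Y box in either orientation. They occurred on the gene's own strand for 5 of the 8 genes (CD74, HLA-DRB1, HLA-DQA1, HLA-DQB1 and HLA-DMA) and in 2.8% of all 35116 promoters of that length. On either strand the same 5 genes matched, against 5.43% of all promoters. Both shares count promoters, of which a gene can have more than 1. HLA-DMB held a Y box without such a match, and neither HLA-DPA1 entry held a Y box. The 110 bases that end 26 bases before the start are shown for 4 of them, with the matched letters in capitals, and for HLA-DPB1, which held a Y box without GATG before it.
CD74, chr5:150412936-150413045, minus strand: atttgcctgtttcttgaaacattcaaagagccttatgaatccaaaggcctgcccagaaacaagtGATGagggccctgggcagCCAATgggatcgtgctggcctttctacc
HLA-DRB1, chr6:32589874-32589983, minus strand: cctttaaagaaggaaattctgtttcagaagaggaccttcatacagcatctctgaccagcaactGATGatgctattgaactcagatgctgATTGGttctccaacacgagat
HLA-DQA1, chr6:32637271-32637380, plus strand: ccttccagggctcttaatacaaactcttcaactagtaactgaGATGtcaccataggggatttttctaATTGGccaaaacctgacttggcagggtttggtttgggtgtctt
HLA-DQB1, chr6:32666683-32666792, minus strand: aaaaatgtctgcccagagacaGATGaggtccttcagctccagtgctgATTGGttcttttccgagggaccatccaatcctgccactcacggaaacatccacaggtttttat
HLA-DPB1, chr6:33075855-33075964, plus strand: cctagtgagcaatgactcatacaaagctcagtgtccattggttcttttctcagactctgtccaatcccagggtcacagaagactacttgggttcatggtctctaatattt

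The matched letters lay 14 bases apart in CD74, 21 in HLA-DQA1 and 22 in HLA-DRB1 and HLA-DQB1. The core ACAAT of SOX proteins, sought on both strands, was in the promoters of 3 of the 8 genes and in 27.4% of all promoters. A match is a string of letters and not a measured binding site.

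Values are normalized counts recovered from the deposited log2 values, and differences are in the deposited log2 values with limma's adjusted p over all 11542 genes tested. Estimated reads on the genes of the deposited table were between 30813000 and 40750200 per library. Reads on identifiers outside that table are not counted, so this is not the full library depth. SOX11 itself averaged 13127 ± 627 normalized counts in the rescue, 1033 ± 262 in the knockout and 3549 ± 474 in wild-type cells (SD, n = 3 each). The groups did not overlap, and an exact two-sided permutation test gave p = 0.1 for every pair, the lowest value possible with 3 libraries against 3. SOX11 RNA was thus lower in the knockout without being absent, and higher in the rescue than in wild-type cells. Of 10 B cell markers 9 passed the filter, with summed levels of 49029 to 56932 in the rescue, 46553 to 52532 in the knockout and 47750 to 57013 in wild-type cells, groups that overlap.

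Most of the 8 tested genes, which include CIITA and CD74, were called higher in the knockout than in wild-type cells. Of the 6 HLA genes among them, 3 were. All 8 were called lower in the rescue than in the knockout. Between the knockout and wild type, 5 of the 8 tested genes passed the threshold, all higher in the knockout: CIITA, CD74, HLA-DRB1, HLA-DPA1 and HLA-DQA1. Among all tested genes 5.36% were called higher and 7.37% lower. Between the rescue and the knockout all 8 tested genes were called lower in the rescue, where 10.7% of all tested genes were lower and 11.5% higher. Between the rescue and wild type 2 were called, CIITA and HLA-DPB1, both lower in the rescue, against 1.78% of all tested genes lower and 2.3% higher. The count for knockout against wild type was 3 without knockout replicate 2, wild-type replicate 1 or batch 1, and 2 without batch 3. The count for rescue against knockout was 4 without batch 3, and that for rescue against wild type was 0 or 1 without any single library of the 2 groups or any batch. The median difference of the 8 genes was 0.38 for knockout minus wild type, -0.59 for rescue minus knockout and -0.18 for rescue minus wild type, where the median of all tested genes was 0.0048, -0.0065 and -3.17e-05. The first and second of these comparisons share the knockout libraries, so they are not independent of each other. In bulk RNA a change in RNA per cell and a change in the number of cells that express a gene cannot be told apart.

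**Figure D1:**
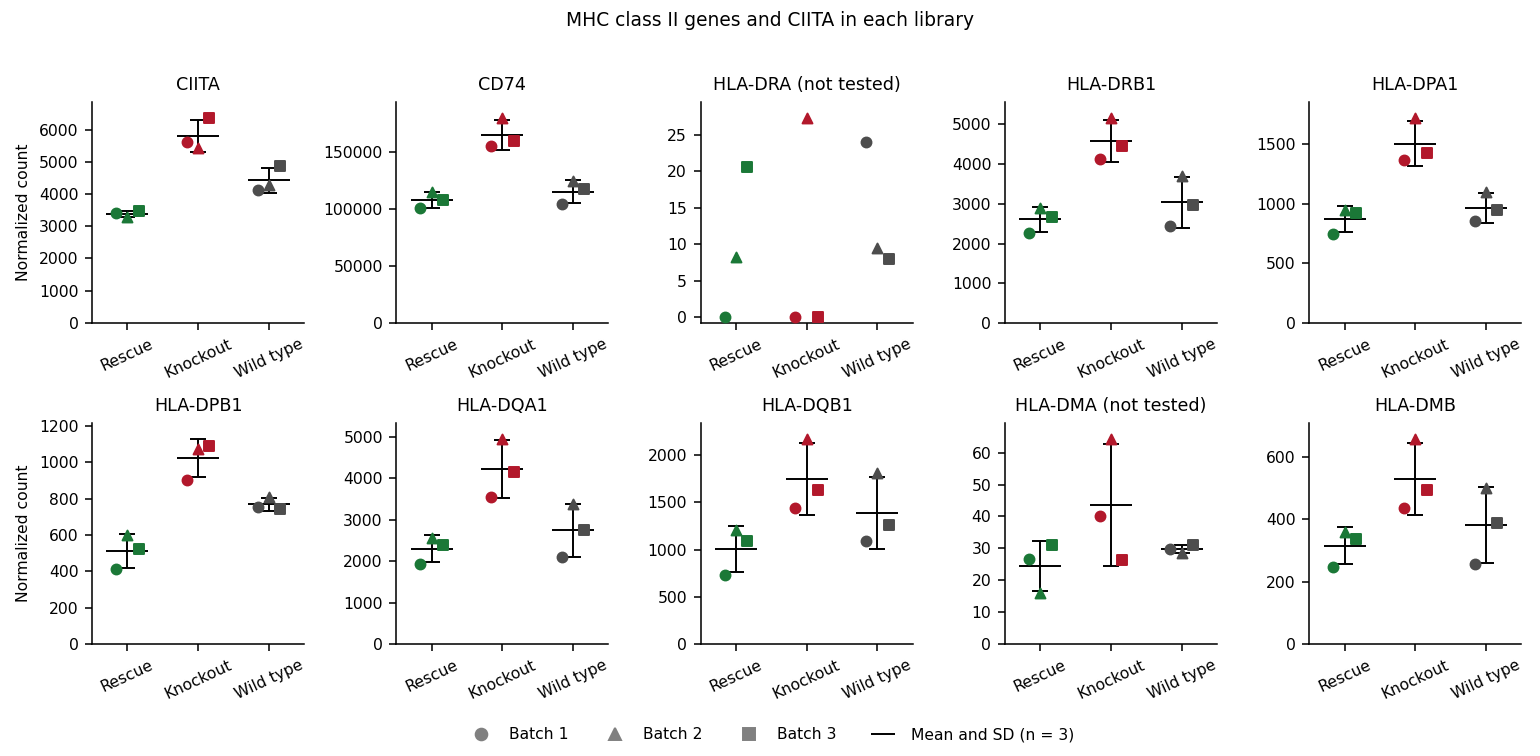
Normalized counts of the 10 genes in each library (y axes differ), with rescue, knockout and wild-type groups along the x axis, symbols for batches and bars for the mean and SD of 3 libraries. HLA-DRA, listed at 0 in 3 libraries, has points only. In each of the 8 tested genes the 3 rescue libraries lie below the 3 knockout libraries.

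CIITA, the coactivator that class II transcription requires, lies on chromosome 16 (GENCODE 29, GRCh38, chr16:10866222-10943021, plus strand). It had 3423, 3282 and 3459 normalized counts in the rescue, 5603, 5429 and 6361 in the knockout, and 4129, 4271 and 4869 in wild-type cells. Every knockout library was above every wild-type library, and every wild-type library was above every rescue library. The difference was 0.34 ± 0.07 (SE) for knockout minus wild type, a 1.31-fold higher mean (limma adjusted p = 0.0063). It was -0.66 ± 0.07 for rescue minus knockout, a 1.71-fold lower mean (limma adjusted p = 4.54e-05), and -0.32 ± 0.07 for rescue minus wild type (limma adjusted p = 0.0216). Within batches 1, 2 and 3 the knockout exceeded wild type by 0.38, 0.30 and 0.34, and the rescue differed from the knockout by -0.61, -0.62 and -0.76. The knockout call was lost without batch 1 (limma adjusted p = 0.105), while the difference between rescue and knockout held in all 16 alternatives. The call between the rescue and wild type was lost without any 1 rescue library, without wild-type replicate 3 or without any 1 batch, with adjusted p of 0.0603 to 0.132.

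This order of 3 groups that do not overlap, knockout above wild type above rescue, was shared by CIITA and HLA-DPB1 and by 1.93% of all tested genes. Counting pairs of groups, 6 of the 8 genes had the knockout above wild type with no overlap (14.7% of all tested genes), 8 had the rescue below the knockout (21.8%) and 2 had the rescue below wild type (10.4%).

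CD74, the invariant chain on chromosome 5 (chr5:150401637-150412929, minus strand), was the most abundant of the 10 genes. It had 100839.5, 114674 and 107401 normalized counts in the rescue, 155220.5, 179633 and 159212 in the knockout, and 104161, 124109 and 117055 in wild-type cells. It took 0.309% of all counts in the rescue, 0.467% in the knockout and 0.327% in wild-type cells. The knockout stood apart from both other groups, which overlapped each other. CD74 was 1.43-fold higher in the knockout than in wild type (difference 0.51 ± 0.08, limma adjusted p = 0.00163) and 1.53-fold lower in the rescue than in the knockout (-0.61 ± 0.08, adjusted p = 3.41e-04). Both calls held in all 16 alternatives. Within batches 1, 2 and 3 the knockout exceeded wild type by 0.57, 0.53 and 0.44, and the rescue differed from the knockout by -0.62, -0.64 and -0.56. The rescue and wild type differed by -0.09 ± 0.08 (adjusted p = 0.63).

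HLA-DR was measured through its beta chain HLA-DRB1 (chr6:32578769-32589848, minus strand). HLA-DRB1 had 2272, 2894 and 2671 normalized counts in the rescue, 4115, 5161 and 4465 in the knockout, and 2434, 3706 and 2967 in wild-type cells. Its lowest knockout library was above its highest wild-type library, whereas the rescue and wild type overlapped. The difference was 0.51 ± 0.12 for knockout minus wild type (limma adjusted p = 0.0152) and -0.67 ± 0.12 for rescue minus knockout (adjusted p = 0.00193). The first call was lost without knockout replicate 2, wild-type replicate 1, batch 1 or batch 3 (adjusted p = 0.0516 to 0.162), and the second without batch 3 (adjusted p = 0.0549).

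The alpha chain HLA-DRA (chr6:32439842-32445046, plus strand), usually among the most abundant RNAs of class II positive cells, was near 0 in this table. It was listed at 0, 8.27 and 20.6 normalized counts in the rescue, 0, 27.4 and 0 in the knockout, and 24.1, 9.47 and 7.99 in wild-type cells. The 3 groups overlapped and no comparison was made. HLA-DMA was low as well, with 26.6, 15.9 and 31.1 in the rescue, 40.2, 64.2 and 26.3 in the knockout, and 29.7, 28.6 and 31.1 in wild-type cells, also overlapping.

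The identifiers of MHC genes limit how these levels can be read. The table has 1 identifier per symbol, and 125 of its identifiers are not held by the GENCODE 29 primary-assembly annotation. Of these, 55 carry symbols of genes between 28 and 34 Mb of chromosome 6, the MHC, which is 33.7% of the 163 table symbols there, against 0.426% of the symbols elsewhere. The submitters' build, GRCh38.p13, includes alternative MHC haplotypes, each with gene identifiers of its own. Of the 10 genes only HLA-DPA1 and HLA-DMB have an identifier outside that annotation. The low genes HLA-DRA and HLA-DMA have identifiers that the annotation holds, so an outside identifier and a low value do not go together among the 10 genes. RPS18, a ribosomal protein gene in the same stretch and a gene named only for this check, has an identifier outside the annotation. It averaged 65.2 normalized counts in the rescue, 77.8 in the knockout and 71.4 in wild-type cells, where the median of 25 other RPS genes was 36141. The HLA values are therefore those of 1 identifier per gene and need not be gene totals, and whether assignment between identifiers moves with the groups was not tested.

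HLA-DQ pairs HLA-DQA1 (chr6:32628179-32647062, plus strand) with HLA-DQB1 (chr6:32659467-32668383, minus strand). The alpha chain HLA-DQA1 had 1933, 2561 and 2391 normalized counts in the rescue, 3547, 4941 and 4141 in the knockout, and 2089, 3384 and 2747 in wild-type cells. The knockout was above both other groups in every library. The difference was 0.52 ± 0.14 for knockout minus wild type (limma adjusted p = 0.0296) and -0.71 ± 0.14 for rescue minus knockout (adjusted p = 0.00377). The first was lost without knockout replicate 2 or 3, wild-type replicate 1 or 3, or batch 3 (adjusted p = 0.0692 to 0.205), and the second without batch 3 (adjusted p = 0.0763).

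The beta chain HLA-DQB1 had 733, 1204 and 1086 normalized counts in the rescue, 1436, 2169.9 and 1626 in the knockout, and 1086, 1813 and 1265 in wild-type cells. The knockout and wild-type libraries overlapped, with the wild-type library of batch 2 above the knockout libraries of batches 1 and 3. Knockout minus wild type was 0.24 ± 0.15 (limma adjusted p = 0.354), and the replicate block gave adjusted p = 0.0146. Rescue minus knockout was -0.54 ± 0.15 (adjusted p = 0.0249), a call lost without knockout replicate 2 or 3, rescue replicate 1, batch 1 or batch 3 (adjusted p = 0.0535 to 0.146).

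HLA-DP pairs HLA-DPA1 (chr6:33064569-33080775, minus strand, position by symbol) with HLA-DPB1 (chr6:33075926-33087201, plus strand). HLA-DPA1 had 743, 947 and 919.7 normalized counts in the rescue, 1363, 1717 and 1423 in the knockout, and 850.1, 1093 and 944 in wild-type cells. The knockout was again apart from both other groups, by 0.42 ± 0.08 over wild type (limma adjusted p = 0.00597, and 0.0916 without batch 3), and the rescue differed from it by -0.51 ± 0.08 (adjusted p = 0.0012).

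HLA-DPB1 had 415, 601 and 523 normalized counts in the rescue, 901, 1074 and 1092 in the knockout, and 754, 808 and 744 in wild-type cells. The groups stood apart in the order given above for CIITA. Rescue minus knockout was -0.56 ± 0.07, a 1.99-fold lower mean and the widest fold of the 8 genes (limma adjusted p = 2.73e-04). Knockout minus wild type was 0.25 ± 0.07, just short of the threshold (adjusted p = 0.0504), and it passed with the replicate block (0.00958), with median centring (0.048), with only the 2 groups fitted (0.0437) and without knockout replicate 1 (0.0413). Rescue minus wild type was -0.32 ± 0.07 (adjusted p = 0.036). That call was lost in 9 of 16 alternatives, with adjusted p of 0.0589 to 0.267: with only those 2 groups fitted, without rescue replicate 1 or 3, and without any 1 wild-type library or batch.

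HLA-DMB, the beta chain of the peptide exchanger (chr6:32934629-32941070, minus strand, position by symbol), had 248, 358 and 338 normalized counts in the rescue, 435, 656 and 494 in the knockout, and 257, 498 and 389 in wild-type cells. The knockout overlapped wild type but not the rescue. Rescue minus knockout was -0.34 ± 0.11 (limma adjusted p = 0.0437), a call lost in 10 of 16 alternatives, including no filter (0.0502) and log2(CPM + 0.1) (0.0513). The other 8 left out knockout replicate 2 or 3, any 1 rescue library or any 1 batch, with adjusted p of 0.0594 to 0.197. Knockout minus wild type was 0.23 ± 0.11 (adjusted p = 0.203), with adjusted p = 0.0137 under the replicate block.

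**Figure D2:**
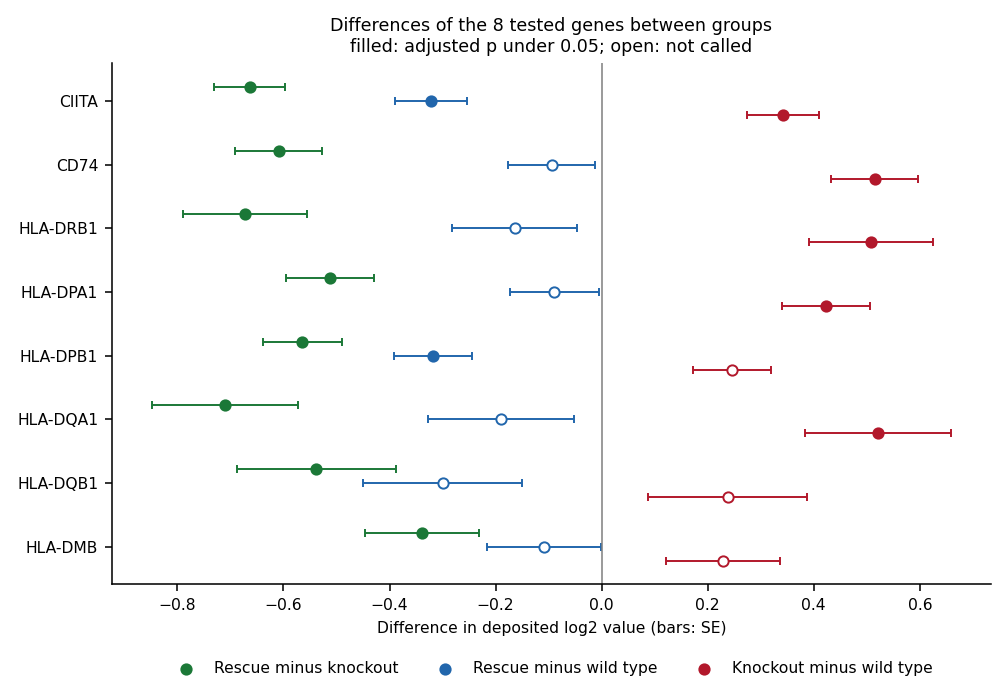
Differences in deposited log2 value (x axis) of the 8 tested genes (y axis) for rescue minus knockout, rescue minus wild type and knockout minus wild type, with SE bars. Filled points have an adjusted p under 0.05. All 8 rescue minus knockout points are filled and negative, and 5 knockout minus wild type points are filled and positive.

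With the replicate block all 8 genes were called higher in the knockout than in wild type, where 10.2% of all tested genes were, and 4 were called lower in the rescue than in wild type, where 3.79% were. The added calls between the rescue and wild type were HLA-DQA1 (limma adjusted p = 0.0497) and HLA-DQB1 (0.0104). In each of the 8 genes the knockout exceeded wild type in all 3 batches and the rescue was below the knockout in all 3. The shares of all tested genes with these directions in every batch were not counted. They cannot be below the 14.7% and 21.8% whose groups did not overlap in the same directions. Batch 2 was the highest batch in all 3 groups for 6 of the 8 genes, against 13.1% of all tested genes (1508 genes). In HLA-DQB1 batch 2 exceeded the mean of batches 1 and 3 by 0.27 in the rescue, 0.37 in the knockout and 0.44 in wild-type cells. CIITA went the other way, with batch 3 highest in all 3 groups and batch 2 below the mean of batches 1 and 3 by 0.06 in the rescue, 0.12 in the knockout and 0.06 in wild-type cells. The labels name 2 library kits and single or paired ends of 50 bases, without saying which library had which. Their part in the batch pattern was not tested.

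**Figure D3:**
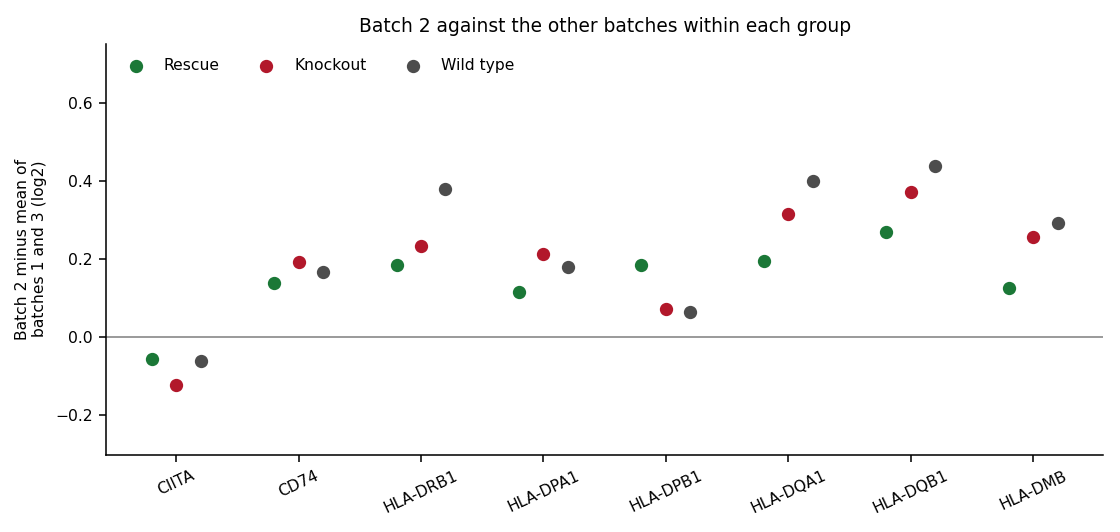
Batch 2 minus the mean of batches 1 and 3 (y axis, log2) for the 8 tested genes (x axis) in the rescue, knockout and wild-type groups, 1 point per group. CIITA lies below 0 in all 3 groups, and the 7 other genes lie above 0 in all 3, with HLA-DQB1 the highest in each.

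Per kilobase of the longest coding transcript, and leaving out CIITA, CD74 had the highest level in each group, at 62327 normalized counts per kilobase in the rescue, 95361 in the knockout and 66652 in wild-type cells. HLA-DRB1 came next with 2126 in the rescue, 3727 in the knockout and 2470 in wild-type cells, followed by HLA-DQA1, HLA-DQB1, HLA-DPA1, HLA-DPB1 and HLA-DMB in that order in all 3 groups. HLA-DQB1 and HLA-DPA1 overlapped in all 3 groups, and HLA-DRB1 with HLA-DQA1 and HLA-DPA1 with HLA-DPB1 in wild-type cells. The other neighbours in that order did not overlap. These levels too are of 1 identifier per gene. Of the 50-base windows of GENCODE 29 transcripts, 9.92% in HLA-DRB1 also occurred in another gene, mostly HLA-DRB5, and 2.07% in HLA-DQA1, all in HLA-DQA2. The share was 11.5% in CIITA, 8.0% in HLA-DMB, 1.51% in HLA-DQB1 and 1.37% in HLA-DPB1, and CD74 and HLA-DPA1 shared none. Only genes of another name in that annotation were compared, which leaves out HLA-DRB3 and HLA-DRB4. Copies of the same gene on alternative MHC haplotypes could not be counted, so a low share does not mean that reads were assigned uniquely.

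Ratios within a library, which scaling does not affect, were taken for each gene to CIITA and for alpha to beta chains. With 11 ratios per comparison, exact two-sided permutation tests reached p = 0.1 at best and no adjusted p below 0.55. The ratios described next are the only ones to reach that lowest value in any comparison, and were picked for it. The log2 ratio of HLA-DPA1 to HLA-DPB1 averaged 0.77 ± 0.10 in the rescue, 0.55 ± 0.15 in the knockout and 0.32 ± 0.13 in wild-type cells (SD, n = 3 each). The rescue and wild-type ratios did not overlap (difference 0.45, exact permutation p = 0.1). The log2 ratio of HLA-DQA1 to HLA-DQB1 was 1.28 ± 0.08 in the knockout and 0.99 ± 0.12 in wild-type cells, again without overlap (difference 0.29, exact permutation p = 0.1). CD74 to CIITA was 4.99 ± 0.13 in the rescue and 4.70 ± 0.14 in wild-type cells (difference 0.29, exact permutation p = 0.1). No ratio to HLA-DRA was formed, since HLA-DRA was listed at 0 in 3 libraries.

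Of 9 other class II genes with a row, 6 were tested. Between the knockout and wild type 2 were called higher (5.36% of all tested genes). Between the rescue and the knockout 3 were called lower (10.7% of all tested genes). HLA-DRB3 and HLA-DRB4, beta chains that only some haplotypes carry, were higher in the knockout than in wild type, and both were lower in the rescue than in the knockout, with HLA-DOA. HLA-DRB3 had 228, 393 and 306 normalized counts in the rescue, 502, 710.3 and 444 in the knockout, and 283, 325 and 296 in wild-type cells. The knockout was above both other groups, with differences of 0.39 ± 0.10 over wild type (limma adjusted p = 0.0208) and -0.38 ± 0.10 for rescue minus knockout (adjusted p = 0.0146). HLA-DRB4 averaged 97.5 ± 7.92 in the rescue, 185 ± 27.4 in the knockout and 106 ± 19.7 in wild-type cells (SD, n = 3 each; limma adjusted p = 0.00539 against the rescue and 0.0153 against wild type). HLA-DOA, a chain of the HLA-DM inhibitor HLA-DO, averaged 201 ± 38.1 in the rescue, 356 ± 34.2 in the knockout and 241 ± 86.6 in wild-type cells (adjusted p = 0.0232 for rescue minus knockout). HLA-DRB5 was not called in any comparison (adjusted p = 0.0604 for rescue minus knockout).

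In chromosomal order, 19 table genes lie from HLA-DRA to HLA-DPB1. Besides class II genes these include 5 tested genes of another kind. Of the 5, 2 were called higher in the knockout than in wild type (5.36% of all tested genes). In the rescue 3 were called lower than in the knockout (10.7% of all tested genes). TAP1 and TAP2, which form the transporter that supplies class I molecules with peptide, were higher in the knockout than in wild type and lower in the rescue than in the knockout. TAP1 had 1096, 1189 and 1343 normalized counts in the rescue, 1937, 2153 and 2089 in the knockout, and 1211, 1343 and 1554 in wild-type cells. The knockout was apart from both other groups (0.43 ± 0.07 over wild type, limma adjusted p = 0.00258; -0.55 ± 0.07 for rescue minus knockout, adjusted p = 3.24e-04). PSMB9, a subunit of the immunoproteasome, was called lower in the rescue than in the knockout, and PSMB8 and the chromatin reader BRD2 were not called.

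**Figure D4:**
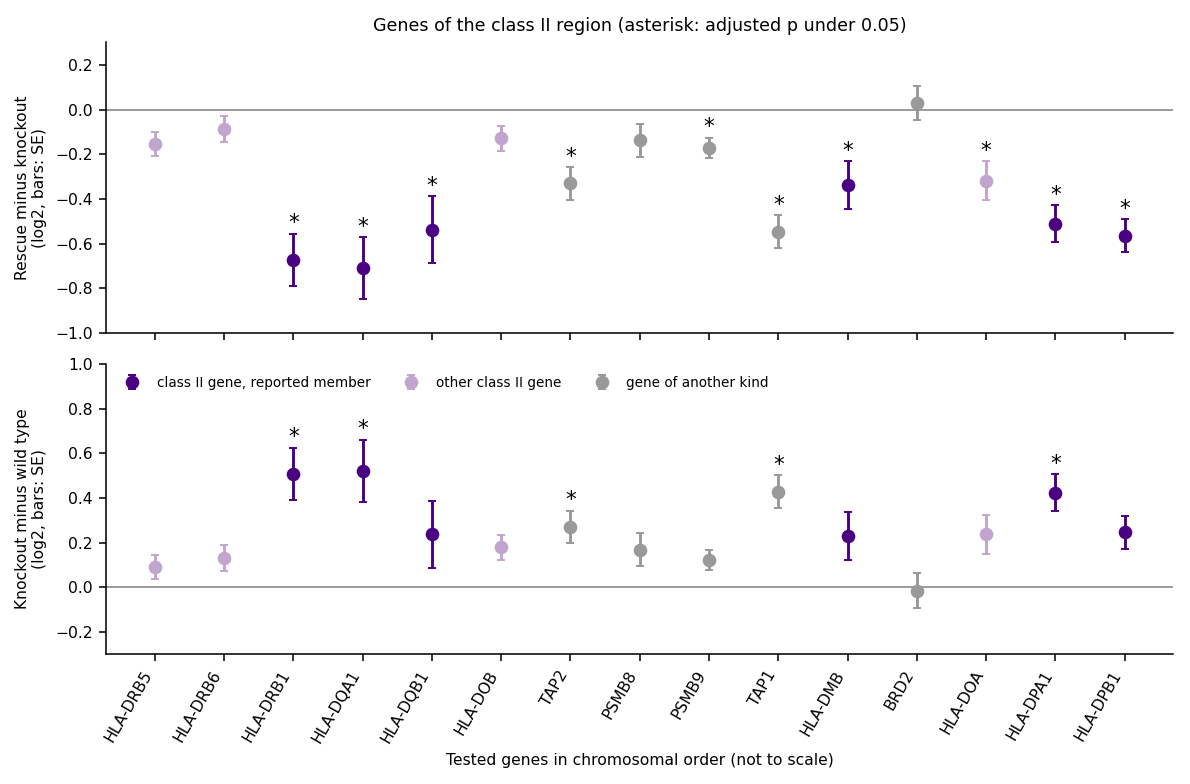
Tested genes from HLA-DRB5 to HLA-DPB1 in chromosomal order (x axis, not to scale), with rescue minus knockout above and knockout minus wild type below (y axes, log2, SE bars). Asterisks mark an adjusted p under 0.05, and TAP1 lies as far from 0 as HLA-DPA1 in both panels while BRD2 lies near 0.

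Of the proteins that hold CIITA at the promoter, 8 were tested. In the knockout 1 was higher and 2 were lower than in wild type (5.36% and 7.37% of all tested genes). In the rescue 2 were higher and 1 lower than in the knockout (11.5% and 10.7% of all tested genes). RFX5, a DNA-binding RFX subunit, had 5753, 6032 and 6157 normalized counts in the rescue, 7638, 7244 and 7152 in the knockout, and 5745, 5332 and 6335 in wild-type cells. It was higher in the knockout than in wild type (0.31 ± 0.06, limma adjusted p = 0.0057) and lower in the rescue than in the knockout (-0.27 ± 0.06, adjusted p = 0.00858). NFYB, an NF-Y subunit, went the other way, with -0.21 ± 0.05 for knockout minus wild type (adjusted p = 0.0255) and 0.29 ± 0.05 for rescue minus knockout (adjusted p = 0.00308). NFYA was lower in the knockout than in wild type (adjusted p = 0.0356), and CREB1 was higher in the rescue than in the knockout (adjusted p = 0.0349). None of the 8 was called by limma between the rescue and wild type, and none had an unadjusted p under 0.05 there. Of 9 coactivators used by CIITA, none was called by limma between the knockout and wild type, and none had an unadjusted p under 0.05 there. The shares of all tested genes at that unadjusted cut-off are not given here. The acetyltransferase KAT2A alone was called lower in the rescue than in the knockout (limma adjusted p = 0.0478), where 10.7% of all tested genes were.

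Among 16 genes linked to the control of CIITA, 1 was higher and 4 were lower in the knockout than in wild type (5.36% and 7.37% of all tested genes). In the rescue 5 were higher and 3 lower than in the knockout (11.5% and 10.7% of all tested genes). IRF8, an interferon regulatory factor of B cells, had 504, 600.4 and 600.4 normalized counts in the rescue, 239, 265 and 334 in the knockout, and 678, 574 and 725 in wild-type cells. The knockout lay below both other groups (-0.58 ± 0.07 against wild type, limma adjusted p = 2.33e-04; 0.47 ± 0.07 for rescue minus knockout, adjusted p = 6.99e-04). STAT3, a cytokine-activated transcription factor, was the gene called higher in the knockout (0.34 ± 0.05, adjusted p = 0.00114; -0.21 ± 0.05 for rescue minus knockout, adjusted p = 0.0124). EZH2, a histone methyltransferase that can silence CIITA, averaged 8682 ± 311 in the rescue, 6807 ± 183 in the knockout and 7915 ± 408 in wild-type cells (SD, n = 3 each), with limma adjusted p of 0.00105 against the rescue and 0.0267 against wild type. MYC was lower in the rescue than in the knockout (-0.51 ± 0.06, adjusted p = 1.35e-04) and than in wild type (-0.35 ± 0.06, adjusted p = 0.00699), the only gene of the list called in the last comparison.

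**Figure D5:**
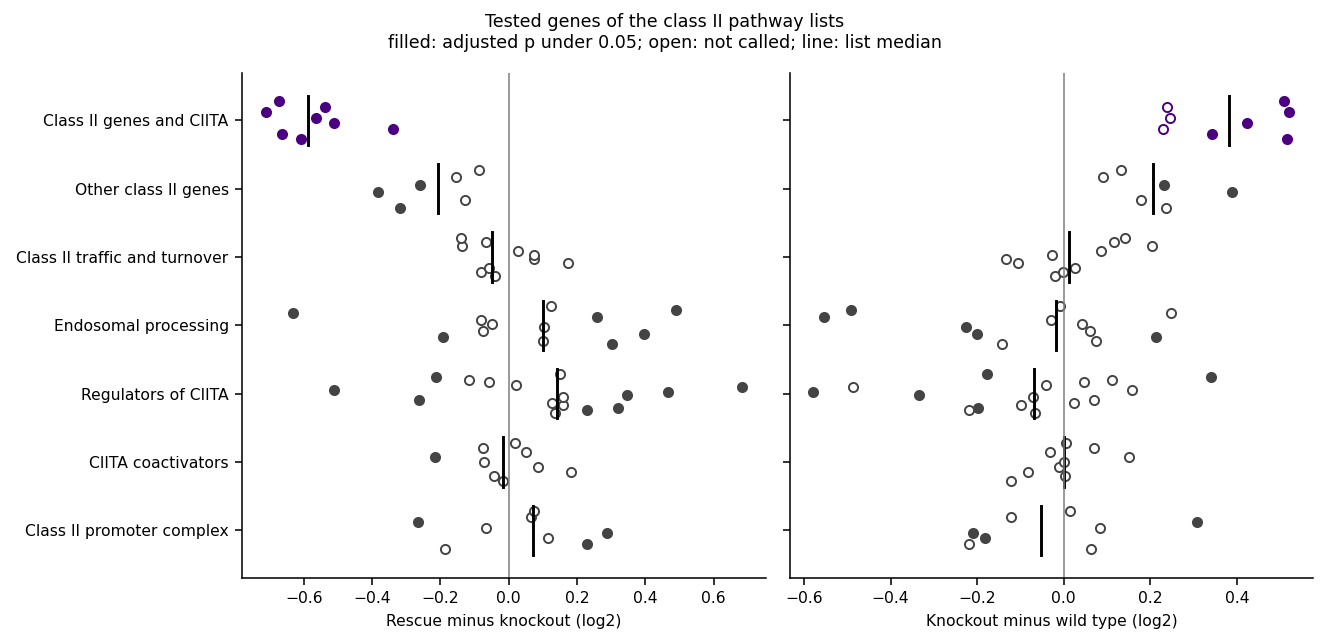
Tested genes of 7 lists (y axis), with rescue minus knockout at left and knockout minus wild type at right (x axes, log2). Filled points have an adjusted p under 0.05 and lines mark list medians, which are -0.59 and 0.38 for the class II genes with CIITA and -0.05 and 0.01 for traffic and turnover. Low genes are compressed on this scale, so medians of different lists cannot be compared as folds.

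Endosomal processing genes did not share one direction. Of 12 tested, 1 was higher and 4 were lower in the knockout than in wild type (5.36% and 7.37% of all tested genes). In the rescue 4 were higher and 2 lower than in the knockout (11.5% and 10.7% of all tested genes). LGMN, an endosomal protease, had 2169.8, 2427 and 2369.8 normalized counts in the rescue, 1442, 1430.1 and 1512 in the knockout, and 2293, 2441 and 2223 in wild-type cells. The knockout was below both other groups (-0.49 ± 0.05 against wild type, limma adjusted p = 1.05e-04; 0.49 ± 0.05 for rescue minus knockout, adjusted p = 6.77e-05). CTSZ, a cathepsin, was also lower in the knockout than in wild type (-0.55 ± 0.05, adjusted p = 5.44e-05) and higher in the rescue than in the knockout (0.26 ± 0.05, adjusted p = 0.00631). CTSC, another cathepsin, was called in the same directions (adjusted p = 0.0469 and 6.99e-04). CTSZ was also lower in the rescue than in wild type (-0.30 ± 0.05, adjusted p = 0.0111). IFI30, a thiol reductase that unfolds antigens, averaged 4276 ± 334 in the rescue, 7036 ± 668 in the knockout and 5858 ± 1141 in wild-type cells (SD, n = 3 each), and was called between the rescue and the knockout (limma adjusted p = 0.00154) but not between the knockout and wild type (0.166). Of 10 genes of class II traffic and turnover none was called in any comparison. At an unadjusted limma p under 0.05 the count was 3 for rescue against knockout, 2 for knockout against wild type and 0 for rescue against wild type. The shares of all tested genes at that cut-off are not given here.

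Of 15 class I genes tested, 4 were higher (B2M, TAP1, TAP2 and the peptide trimmer ERAP2) and 1 lower (ERAP1) in the knockout than in wild type. The shares of all tested genes were 5.36% and 7.37%. In the rescue 8 were lower than in the knockout (10.7% of all tested genes). The median difference of the 15 class I genes was 0.12 for knockout minus wild type and -0.21 for rescue minus knockout. Low genes are compressed on the deposited scale, so medians of lists with different levels cannot be compared as folds. CD4, the receptor that binds class II molecules on T cells, was present at 331, 387 and 369.5 normalized counts in the rescue, 818, 888 and 831 in the knockout, and 186, 179 and 174 in wild-type cells. The 3 groups stood apart in the order knockout, rescue, wild type (1.01 ± 0.05 over wild type, limma adjusted p = 5.15e-07; -0.63 ± 0.05 for rescue minus knockout, adjusted p = 7.6e-06; 0.38 ± 0.05 for rescue minus wild type, adjusted p = 0.00118). LILRB4, the other tested gene of the separate list that holds CD4, was not called.

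Markers of other cells that carry or meet class II were checked beside these results. Of 12 monocyte and dendritic markers 6 had a row and none passed the filter. Their summed level was 47.1 to 68.4 normalized counts in the rescue, 35.7 to 44.1 in the knockout and 25.3 to 32.0 in wild-type cells, and CD14 was at 0 in 4 libraries, CSF1R in 3 and CLEC4C in 2. Of 14 T and NK markers 5 were tested, with sums of 567 to 652 in the rescue, 625 to 762 in the knockout and 451 to 532 in wild-type cells. CD3E and NKG7 were higher in the knockout than in wild type (limma adjusted p = 0.00871 and 0.00589). TRAC was higher in the rescue than in the knockout (0.0217) and CD3E higher in the rescue than in wild type (0.0287), while CD5, CD7 and CD8B were each at 0 in 4 libraries. Of 7 plasma cell markers 1 was higher (JCHAIN, 0.42 ± 0.08, adjusted p = 0.00661) and 1 lower (IRF4) in the knockout than in wild type, with sums of 79103 to 91638 in the rescue, 107646 to 116959 in the knockout and 84119 to 96228 in wild-type cells. Between the rescue and the knockout XBP1, TNFRSF17 and JCHAIN were lower in the rescue (limma adjusted p = 1.22e-04, 0.0484 and 0.00131) and IRF4 was higher (0.0266), and XBP1 was also lower in the rescue than in wild type (0.00986). Of 7 interferon markers 1 was higher in the knockout than in wild type (IFIT3, adjusted p = 0.0102), and none was lower. Between the rescue and the knockout IRF1, MX1 and IFIT3 were lower in the rescue and OAS1 was higher (adjusted p = 0.0175), and MX1 was also lower in the rescue than in wild type (adjusted p = 3.43e-04). Of 9 B cell markers none was called by limma between the knockout and wild type, where 6 had an unadjusted p under 0.05, nor between the rescue and wild type, where 7 did. The shares of all tested genes at that unadjusted cut-off are not given here, so these 2 counts cannot be called high or low. Between the rescue and the knockout PAX5 and CD37 were higher in the rescue and BLK lower. The part of these markers in the class II differences was not tested.

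Over the 9 libraries, the genes most like CIITA in deposited log2 values were ACTA2, PECAM1, ITGA4, HSPB1 and SESN1. In that order they are a smooth muscle actin, an adhesion molecule, an integrin subunit, a small heat shock protein and a stress response gene. Likeness was the root mean square difference between deposited log2 values after each gene was centred on its own mean. It was 0.068 for ACTA2 and 0.086 for SESN1, against 0.281 for a gene with the same value in every library. Among 11541 genes ranked this way, HLA-DPB1 was 25th with 0.119, CD74 145th, HLA-DPA1 198th, HLA-DRB1 399th, HLA-DMB 751st, HLA-DQA1 818th and HLA-DQB1 1624th. Low genes are compressed on that scale, so likeness there is not likeness in fold, and the ranks depend on level as well as profile. ACTA2 averaged 129 normalized counts in the rescue and 380 in the knockout, and PECAM1 155 and 436. CIITA averaged 3388 in the rescue and 5798 in the knockout. The 9 libraries share groups and batches, so these ranks are a description of this series.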

How the data were processed

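RNA of 9 Z138 libraries was sequenced, in 3 groups of 3. Per the submitters' processing notes, the tools were kallisto 0.46.1 and DESeq2 1.24.0 in R 4.3.2, after FastQC 0.11.9 and Trimmomatic 0.40, with the build GRCh38.p13. Per the labels' protocols, polyadenylated RNA and either of 2 TruSeq kits, 1 of them stranded, were used, so genes that overlap on opposite strands are uncertain.

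The deposited log2 values were read as a variance-stabilized scale rather than log CPM. All libraries share 1 lowest value, 8.598, which alone does not tell these scales apart. The closed form of that transform was inverted to normalized counts, and CPM was each library's share of them. Low values fell on multiples of a per-library step, the worth of 1 read, in 83.8% to 98.5% of cases within 0.05 for genes with a single transcript. That step gave the estimate of reads on the deposited genes. As kallisto divides reads, the counts are estimates and no count model was used.

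The 11542 genes that reached a CPM of 1 in 3 or more libraries were tested, and 5044 were left out. The test was limma 3.58.1 in R 4.3.3 on the deposited values, with a mean per group over all 9 libraries, a trended prior variance and Benjamini-Hochberg adjustment over all tested genes at a threshold of 0.05. Because low genes are compressed on this scale, folds are of mean normalized counts. Groups whose libraries did not overlap were counted in normalized counts, and values within batches are differences of deposited log2 values. Ratios and SOX11 were compared by exact permutation tests. The fit was tested on simulated counts.

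The batch label equals the replicate number, so libraries of 1 number are paired. Their deviations from group means correlated at 0.187 to 0.51 between groups, and those of differently numbered libraries at -0.387 to 0.159. Deviations from a group mean cancel within the group, so part of this contrast is built in. The main fit had no replicate block.

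The genes and lists were chosen with earlier results of these data known. Named genes are the 10 class II genes with CIITA, up to 4 of each list with the smallest adjusted p in any comparison, and the 5 genes most like CIITA. Others are those of a count of 5 or fewer, and were named after their values were seen. Other settings tried were no filter, a stricter filter at a CPM of 4, log2(CPM + 1), log2(CPM + 0.1), median centring, the replicate block, a fit of 2 groups alone, and the omission of single libraries or batches. Figures were drawn with matplotlib 3.10.9. Positions are from GENCODE 29, and promoters from RefSeq.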

Additional observations from a re-analysis of the deposited data

How the results depend on the processing

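Over the 8 tested genes and 3 comparisons, 384 values were recomputed under alternatives. Of these, 332 kept their direction and side of the threshold, 44 lost a call, 8 gained one and 0 changed sign. With the replicate block, 8 of the 8 tested genes were called for knockout against wild type and 4 for rescue against wild type, against 5 and 2 without it. The count of all genes called was 2481 (1470 without the block) and 930 (470 without it). Fitting only the 2 groups compared left 1 of the 8 genes called between the rescue and wild type. Without 1 library or 1 batch, the number of the 8 genes called ranged between 2 and 6 for knockout against wild type. It ranged between 4 and 8 for rescue against knockout, and between 0 and 1 for rescue against wild type. All genes called ranged between 574 and 1395, 993 and 2156, and 111 and 374 in the same order. Leaving out batch 3 gave the lowest count in each of the first 2 comparisons. Fewer libraries widen the error of each of these fits. The step of 1 read was at most 1.132 normalized counts, and HLA-DRA and HLA-DMA were below the filter on low values. The cause of the other changes was not tested.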
